A study of Homo sapiens with 32 samples.

Results

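Lysosomal hydrolases and lysosomal membrane proteins were followed in THP-1 cells, a human monocytic leukaemia line, under 4 treatments. The list held 39 genes, chosen by name with earlier results of these data known. Its shares beside those of all probes are therefore descriptive. It covered cathepsins and other proteases, an acid nuclease, glycosidases, sulfatases, lipid hydrolases, acid phosphatases and membrane proteins. It also held 3 proton pump subunits and the transcription factor TFEB. Every probe whose platform symbol matched a listed gene was taken, which gave 56 of 24518 probes and 38 of 16920 named genes. ACP5 matched no probe, so its expression was not analysed here, while its promoter is among those searched for motifs below. Of the 38 genes, 26 had 1 probe and 12 had several, and the probe with the highest mean stood for the gene. All 38 passed the filter on dim probes. Most of the 38 had a mean intensity above the upper quartiles of the arrays, which lay between 345 and 381. The shares of all probes given beside those of the lists were not matched for brightness. Changes of dim probes are understated on the scale used. What part brightness has in the differences between these shares was not tested.

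The 4 treatments, each on 8 arrays, were LPS at 100 ng/ml with TGFβ1 at 1 ng/ml, TGFβ1 alone, LPS alone, and PBS as the control. Cells of all groups had been kept in low serum overnight, were then treated for 24 h, and gave total RNA for Illumina HumanRef-8 arrays. LPS, a component of the bacterial outer membrane, is sensed through TLR4, and TGFβ1 is a cytokine that signals through SMAD proteins. The series set both pathways off at the same time, alongside each alone. Whether the 8 arrays of a treatment stand for 8 cultures is not said in the labels, and a p-value here speaks of array-to-array spread alone, which can be technical. All groups are of 1 cell line, and RNA was measured, not protein or enzyme activity.

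Each array had 12136 to 13432 probes above background. The arrays lay on 4 chips with 2 arrays of each treatment on each. By the labels each treatment kept to the same positions on every chip, so effects of position and treatment cannot be told apart; position E is given both to 4 LPS+TGFβ1 arrays and to 4 TGFβ1 arrays, so these labels are in doubt. What was left after the treatment means were removed divided the arrays of each treatment into 2 sets, along a main component with 42.3% of that residual variance. Set 1 held 4 of 8 arrays of LPS+TGFβ1, 3 of 8 of TGFβ1, 4 of 8 of LPS and 3 of 8 of PBS. Chip 2 lay wholly in set 1 and chip 3 wholly in set 2. Values by chip or by set are therefore given beside the main results, and what the sets stand for was not tested. With the set as a block, 29 of the 38 genes were called for LPS against PBS (29 without it), 17 for TGFβ1 against PBS (12), 17 for LPS+TGFβ1 against LPS (14) and 12 for the interaction of both agents (8); the sets come from the same data, so these p-values can be too small. Of the 11 monocyte markers with a probe, 10 were above background on every array. Their summed intensity ran from 50352 to 66606 with LPS+TGFβ1, 27327 to 43473 with TGFβ1, 54703 to 72919 with LPS and 9957 to 28768 with PBS. Singly, 9 of the 11 rose and 2 fell with LPS against PBS (lowest log2 change -1.29), beside 20.9% and 21% of all probes. With LPS+TGFβ1 against PBS 8 rose and 2 fell (lowest -1.67), beside 18% and 21.9%. With TGFβ1 against PBS 5 rose and 1 fell, beside 7.54% and 5.7%. CD3D, CD3E, CD3G, CD2 and CD8A of T cells, PAX5 of B cells, EPCAM, KRT8 and KRT19 of epithelium, COL1A1, COL1A2, COL3A1, CDH5 and KDR of fibroblasts and endothelium, and HBB and ALAS2 of red cells were above background on no array. Other markers on these lists were detected, and some were higher with LPS. NKG7, a granule gene of NK cells, was above background on every array and rose by 1.16 on the log2 scale with LPS against PBS. The summed T and NK cell list ran from 851 to 1260 with LPS+TGFβ1, 598 to 789 with TGFβ1, 1158 to 1494 with LPS and 433 to 778 with PBS. DCN, a matrix proteoglycan, was above background on all 8 LPS+TGFβ1 and all 8 LPS arrays and on 0 of 8 TGFβ1 and 0 of 8 PBS arrays. For LPS over PBS its ratio was at least 2.55-fold. VWF of endothelium was above background on 4 of 8 LPS+TGFβ1, 2 of 8 TGFβ1, 4 of 8 LPS and 0 of 8 PBS arrays. The summed fibroblast and endothelial list had medians of 282 with LPS+TGFβ1, 122 with TGFβ1, 393 with LPS and 171 with PBS. CDH1 of epithelium was above background on 8 of 8 LPS+TGFβ1, 7 of 8 TGFβ1, 3 of 8 LPS and 0 of 8 PBS arrays, and CD79B of B cells fell by 0.49 with LPS. CD79A, GNLY, MS4A1 and KRT18 were above background on some arrays. The part of these markers in the results was not tested.

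Lysosomes are acidic organelles in which hydrolases break down protein, nucleic acid, glycan and lipid. Most of these enzymes are tagged with mannose 6-phosphate, carried to the organelle by sorting receptors, and switched on by the low pH that a proton pump keeps. Monocytes and macrophages use them to digest engulfed microbes and dead cells and to cut antigens for presentation. TFEB, a helix-loop-helix factor of the MiT/TFE family, is held in the cytoplasm by mTORC1 kinase and, once released, binds an E-box in the promoters of many lysosomal genes. That extended E-box is known as the CLEAR element.

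The promoters of 29 of the 39 listed genes were found in the RefSeq table (build GRCh38.p14, 250 bases before to 50 after the transcription start), and both strands were searched for 6 motifs. The core E-box CACGTG stood in 9 of the 29, or 31%, against 8.34% of 22199 promoters. TCACGTG, which contains the core, stood in 8, or 27.6%, against 4.44%. The palindromic CLEAR element, which is the core preceded by GT and followed by AC and so contains both, stood in 3, or 10.3%, against 0.496%. The 26 bases around a core E-box of each of the 9 genes are given here 5′ to 3′ on the gene's strand, because this site is the element through which TFEB is known to act on lysosomal genes, with the core in capitals.
GAA: gaggccgcgtCACGTGacccaccgcg
GALNS: ggcaccgcgtCACGTGacccgccgct
MCOLN1: gctaccgggtCACGTGaccgaggcac
CTSA: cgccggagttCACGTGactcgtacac
CTSD: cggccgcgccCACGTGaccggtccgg
NEU1: gctgcgtgatCACGTGggaggagatg
LAMP1: cccgcgggatCACGTGacgcccgggc
ATP6V0D1: cccttatggtCACGTGaggcgcttgc
CD63: gggtaggggcCACGTGgccctggccg
In GRCh38.p14 these windows lay at chr17:80101495-80101520 on the plus strand (GAA), chr16:88857106-88857131 on the minus strand (GALNS), chr19:7522600-7522625 on the plus strand (MCOLN1) and chr20:45891300-45891325 on the plus strand (CTSA). The CTSD window lay at chr11:1763959-1763984 and that of NEU1 at chr6:31862932-31862957, both on the minus strand. The LAMP1 window lay at chr13:113297201-113297226 on the plus strand, that of ATP6V0D1 at chr16:67481201-67481226 on the minus strand, and that of CD63 at chr12:55729174-55729199 on the minus strand. GAA, GALNS and MCOLN1 carried the palindrome. LAMP1 had 6 copies of the core in its 300 bases.

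**Figure D1:**
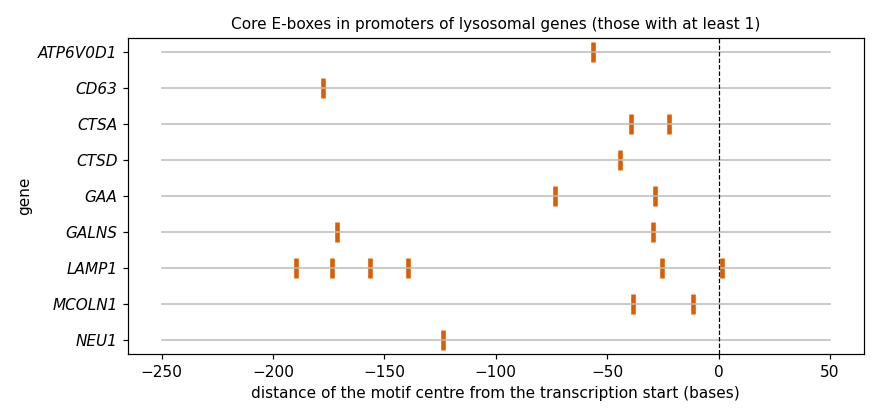
Positions of the core E-box in the promoters of the 9 listed genes that carry at least 1 (rows), in bases from the transcription start (x axis, dashed line at the start). Each orange mark is the centre of 1 copy and each grey line is the stretch searched. LAMP1 carries 6 copies, and CTSA, GAA, GALNS and MCOLN1 carry 2 each.

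Promoters of DNASE2 and CTSD are given whole, 5′ to 3′ on the minus strand. They are examples of the 4 listed genes that TGFβ1 raised at least 2-fold, as given below. The others were CTSB, whose change lay between theirs and which had no entry, and CTSH. The CTSH promoter held none of the 6 motifs and is not printed. Capitals mark any of the 6 motifs.
DNASE2: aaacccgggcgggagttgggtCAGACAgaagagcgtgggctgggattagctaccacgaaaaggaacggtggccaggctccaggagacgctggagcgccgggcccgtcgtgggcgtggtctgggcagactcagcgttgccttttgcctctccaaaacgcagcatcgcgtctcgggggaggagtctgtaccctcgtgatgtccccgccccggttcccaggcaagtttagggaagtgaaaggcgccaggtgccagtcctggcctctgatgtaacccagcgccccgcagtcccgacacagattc
CTSD: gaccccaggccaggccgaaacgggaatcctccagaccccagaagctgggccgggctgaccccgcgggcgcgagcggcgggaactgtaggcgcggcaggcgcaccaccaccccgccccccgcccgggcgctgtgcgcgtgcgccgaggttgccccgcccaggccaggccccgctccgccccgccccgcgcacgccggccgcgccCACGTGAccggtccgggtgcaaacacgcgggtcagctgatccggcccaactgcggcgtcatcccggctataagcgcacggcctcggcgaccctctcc
The DNASE2 stretch is chr19:12881400-12881699 and the CTSD stretch is chr11:1763878-1764177, both of GRCh38.p14. That of CTSD held the core E-box with the flanking base of TCACGTG, read on the other strand. That of DNASE2 held CAGACA, a SMAD-type element, which stood in 10.3% of the 29 promoters and 15.2% of all promoters. The letters of the E-box are not in this DNASE2 window. The AP-1 element TGANTCA stood in 6.9% of the 29 promoters against 6.15% of all, and the PU.1-type element GAGGAAGT in 3.45% against 2.64%.

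LPS raised much of the lysosomal list. Of the 38 genes, 25 rose and 4 fell compared with PBS (limma, adjusted p under 0.05 over all probes), where 20.9% of all 18388 probes tested rose and 21% fell, or 41.9% in all. The median log2 change of the 38 was 0.51, beside 0.05 over all probes. At least 2-fold rises were found for 11 of the 38, beside 5.09% of all probes, and falls as large for 0, beside 2.37%. Every LPS array lay above every PBS array for 20 of the 38, beside 10% of all probes, and below for 1, beside 8.54%. In bulk RNA, a change in the number of cells of a kind and a change in RNA per cell cannot be told apart.

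TGFβ1 alone raised 12 of the 38 genes compared with PBS and lowered 0, where 7.54% of all probes rose and 5.7% fell, or 13.2% in all (limma). At an unadjusted p under 0.05, 20 rose and 0 fell, and the lowest log2 change of the 38 was -0.08. Their median log2 change was 0.21, beside -0.04 over all probes. With the replicate number as a block, 15 rose: CTSZ (log2 change 0.47, adjusted p = 0.0239), HEXA (0.29, adjusted p = 0.0288) and MCOLN1 (0.26, adjusted p = 0.036) joined the 12. Every TGFβ1 array lay above every PBS array for 8 of the 38, beside 4.06% of all probes, and below for 0, beside 1.84%.

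With both agents, 28 of the 38 genes rose and 2 fell compared with PBS, where 18% of all probes rose and 21.9% fell (39.9% in all), and 14 rose at least 2-fold, beside 5.31% of all probes. Their median log2 change was 0.60, beside -0.04 over all probes. The arrays with both agents lay wholly above PBS for 20 of the 38, beside 9.28% of all probes, and wholly below for 0, beside 7.78%. Adding TGFβ1 to LPS raised 12 and lowered 2 compared with LPS alone, where 8.19% of all probes rose and 10.1% fell (18.3% in all). The arrays lay wholly above LPS for 3 of the 38, beside 3% of all probes, and wholly below for 2, beside 2.44%. Adding LPS to TGFβ1 raised 20 and lowered 1 compared with TGFβ1 alone, where 14.9% of all probes rose and 16.5% fell (31.5% in all). The arrays lay wholly above TGFβ1 for 15 of the 38, beside 7.43% of all probes, and wholly below for 1, beside 6.42%; 4 rose at least 2-fold, beside 3.53%, and 0 fell as far, beside 1.38%. The interaction (the LPS change in the presence of TGFβ1 less the LPS change in its absence, in log2 units) was above 0 for 1 gene and below 0 for 7, where 2.82% and 4.46% of all probes were called, or 7.28% in all. DNASE2 and CTSB passed with interactions of -1 or lower, beside 0.843% of all probes, and 0 of the 38 at 1 or higher, beside 0.196% (limma).

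**Figure D2:**
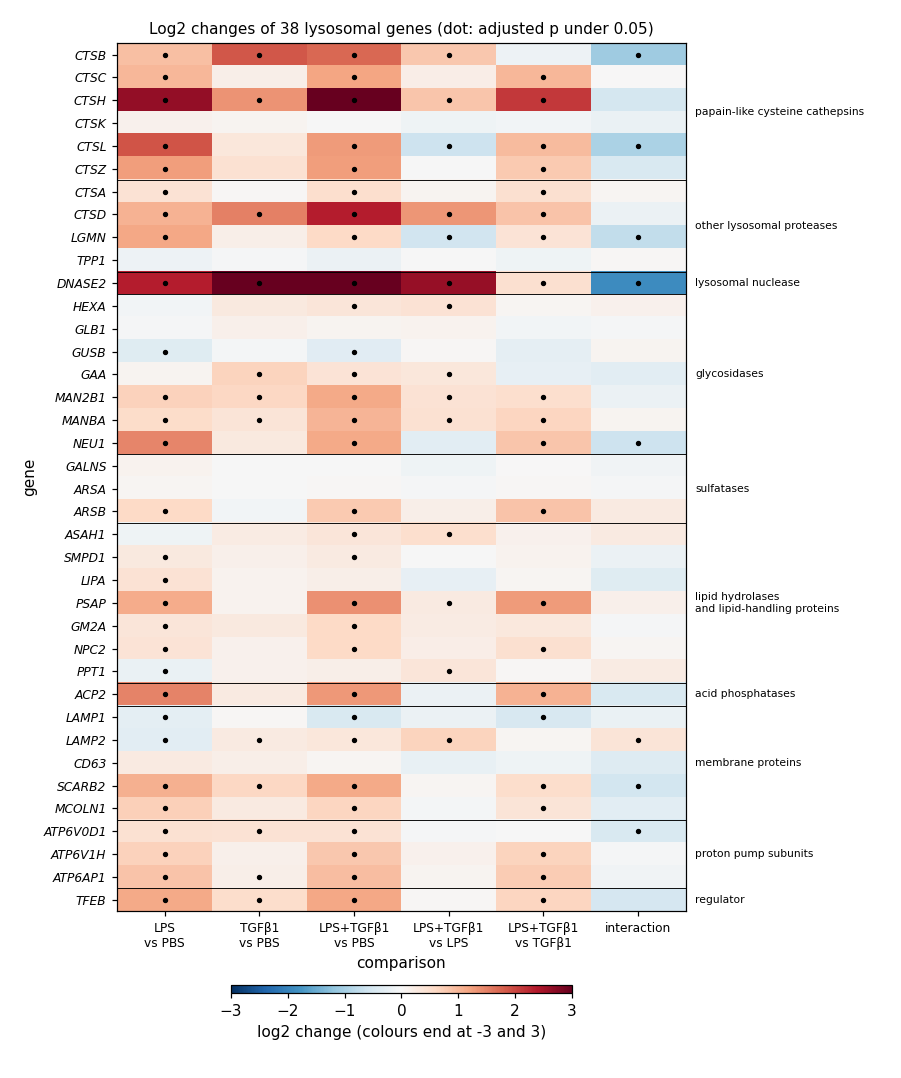
Log2 changes of the 38 genes (rows, grouped by role) in the 6 comparisons (columns). Colour gives the log2 change, red for higher and blue for lower in the first-named treatment, and ends at -3 and 3, which DNASE2 and CTSH passed; dots mark adjusted p under 0.05. The TGFβ1 column holds 12 dots, all on rises, and the LPS column holds 25 on rises and 4 on falls.

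DNASE2, the acid endonuclease that digests the DNA of engulfed cells, had the largest change of the 38 genes under TGFβ1. Its intensity was 4585 to 6437 (median 5427) with LPS+TGFβ1 and 2746 to 5299 (median 3635) with TGFβ1. It was 541 to 1391 (median 889.8) with LPS and 99.2 to 169 (median 116) with PBS. The TGFβ1 and PBS arrays did not overlap, nor did the LPS and PBS arrays or the LPS+TGFβ1 and LPS arrays, while the ranges with LPS+TGFβ1 and TGFβ1 did. The log2 change was 4.50 ± 0.18 (SE, n = 8 each) for TGFβ1 against PBS, or 22.7-fold (limma, adjusted p = 6.65e-20). It was 2.36 ± 0.18 for LPS against PBS (adjusted p = 3.48e-13) and 4.97 ± 0.18 for LPS+TGFβ1 against PBS, or 31.4-fold (adjusted p = 5.95e-22).

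Where TGFβ1 was present, LPS added little to DNASE2. The log2 change of LPS+TGFβ1 against TGFβ1 was 0.47 ± 0.18 (adjusted p = 0.0384). Leaving out a chip ended that call (highest adjusted p = 0.276), and it was 0.05 on chip 2 and 0.96 on chip 3. The interaction was -1.89 ± 0.25 (adjusted p = 2.57e-06) and lay between -2.14 and -1.53 on the 4 chips. TGFβ1 moved DNASE2 by a similar log2 amount on every chip, 4.34 to 4.61. LPS moved it by 1.58 on chip 2 and 3.10 on chip 3, with 1.54 in set 1 and 3.08 in set 2.

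**Figure D3:**
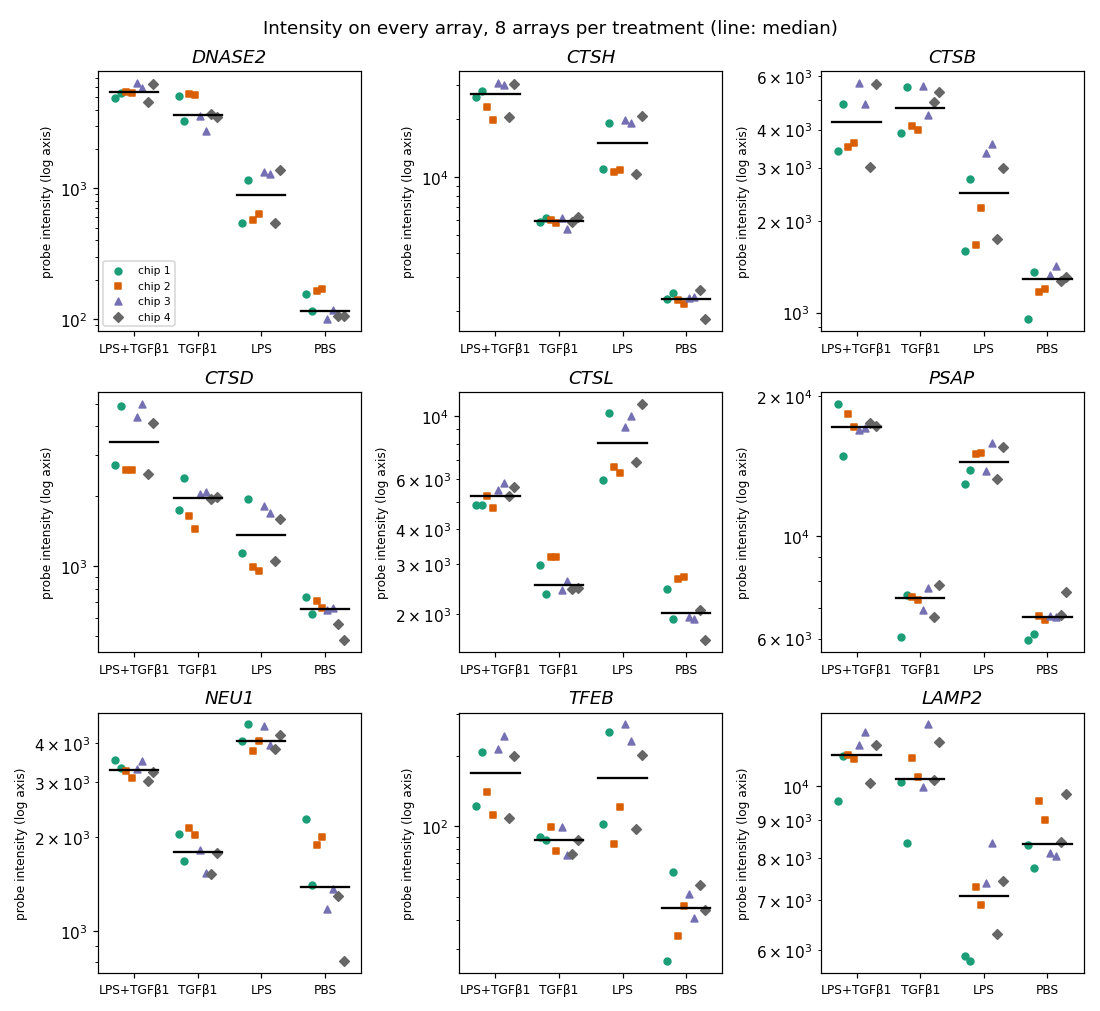
Probe intensity (y axes, log scale) of 9 lysosomal genes on every array, by treatment (x axes, LPS+TGFβ1, TGFβ1, LPS and PBS from left to right). Each point is 1 array, its shape and colour give the chip, and the line is the median of 8 arrays. DNASE2, CTSB and CTSD are higher with TGFβ1 than with PBS on every array, while CTSL, NEU1 and PSAP are highest in the treatments that contain LPS.

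Among the papain-like cysteine cathepsins, 5 of 6 rose with LPS (median log2 change 1.12) and 2 of 6 with TGFβ1 (median 0.40). CTSH, an aminopeptidase, measured 19896 to 30996 (median 27111) with LPS+TGFβ1 and 5381 to 6204 (median 5911) with TGFβ1. It measured 10380.0 to 20694 (median 15011) with LPS and 1813 to 2584 (median 2322) with PBS. The 3 treated groups lay wholly above PBS. CTSH rose 6.24-fold with LPS (log2 change 2.64 ± 0.13, adjusted p = 1.57e-17), 2.55-fold with TGFβ1 (1.35 ± 0.13, adjusted p = 1.45e-09) and 11.1-fold with both (3.47 ± 0.13, adjusted p = 6.33e-21). Its interaction of -0.52 ± 0.19 did not pass (adjusted p = 0.0986). A second CTSH probe gave 2.59, 1.23 and 3.62.

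CTSB, a cysteine protease with both endopeptidase and carboxypeptidase activity, had its larger change under TGFβ1. It measured 3014 to 5704 (median 4223) with LPS+TGFβ1 and 3889 to 5572 (median 4697) with TGFβ1. It measured 1596 to 3580.1 (median 2481) with LPS and 951 to 1419 (median 1292) with PBS. All 3 treated groups lay wholly above PBS, and the ranges with LPS+TGFβ1 and TGFβ1 overlapped. The log2 change was 1.87 ± 0.15 for TGFβ1 against PBS (adjusted p = 1.4e-11) and 0.91 ± 0.15 for LPS against PBS (adjusted p = 7.72e-06). With both agents the log2 change against PBS was 1.72 ± 0.15, and against TGFβ1 alone it was -0.15 ± 0.15 (adjusted p = 0.546). The interaction was -1.06 ± 0.22 (adjusted p = 0.00134), and it stayed under the threshold without any 1 chip.

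CTSL, an endopeptidase, rose with LPS and was lower when TGFβ1 was added. It measured 4728 to 5836 (median 5216) with LPS+TGFβ1 and 2363 to 3189.5 (median 2539.9) with TGFβ1. It measured 5940.0 to 11092 (median 8033) with LPS and 1619 to 2707 (median 2017) with PBS. Every LPS+TGFβ1 array lay below every LPS array. The log2 change was 1.89 ± 0.12 for LPS against PBS (adjusted p = 4.3e-15), 0.33 ± 0.12 for TGFβ1 against PBS (adjusted p = 0.0641) and -0.62 ± 0.12 for LPS+TGFβ1 against LPS (adjusted p = 0.000203). The interaction was -0.95 ± 0.17 (adjusted p = 0.000234). CTSL had 2 other probes, which gave LPS changes of 1.17 and 1.90 against PBS.

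CTSC, the dipeptidyl peptidase that activates granule serine proteases, measured 3461 to 4923 (median 4155) with LPS+TGFβ1 and 1764 to 2469 (median 2076) with TGFβ1. It measured 2550.5 to 5319.8 (median 3762) with LPS and 1659 to 2184 (median 1716) with PBS. The groups with LPS lay wholly above those without it. CTSC had a log2 change of 0.99 ± 0.14 for LPS against PBS and 1.00 ± 0.14 for LPS+TGFβ1 against TGFβ1, with an interaction of 0.02 ± 0.19 (adjusted p = 0.974). In set 2 alone the interaction was -0.38 (adjusted p = 0.0259). A dim further probe of CTSC gave 0.26 for LPS against PBS (adjusted p = 0.21).

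CTSZ, a carboxypeptidase, measured 2194 to 4188 (median 3148) with LPS+TGFβ1 and 1287 to 2158 (median 1853) with TGFβ1. It measured 1985 to 4966 (median 3198) with LPS and 845 to 1809.5 (median 1321) with PBS. LPS and PBS arrays did not overlap, and TGFβ1 and PBS arrays did. Its log2 change was 1.26 ± 0.19 with LPS and 1.26 ± 0.19 with both agents, each against PBS. CTSK, the collagen-degrading protease known from osteoclasts, had medians between 99.7 and 113 in the 4 groups, with log2 changes from -0.20 to 0.12 and no call in the 6 comparisons (limma; 0 at an unadjusted p under 0.05).

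Of the other lysosomal proteases, 3 of 4 rose with LPS and 1 of 4 with TGFβ1. CTSD, the main aspartic protease of lysosomes, measured 2482 to 5008 (median 3429) with LPS+TGFβ1 and 1442 to 2405 (median 1968) with TGFβ1. It measured 957 to 1953 (median 1363) with LPS and 480.4 to 735 (median 653) with PBS. The 3 treated groups lay wholly above PBS, and LPS+TGFβ1 lay wholly above both LPS and TGFβ1. Its log2 change against PBS was 2.36 ± 0.16 with LPS+TGFβ1 (5.15-fold), 1.51 ± 0.16 with TGFβ1 (2.86-fold) and 1.04 ± 0.16 with LPS (2.05-fold). The interaction was -0.19 ± 0.22 (adjusted p = 0.735): on the log2 scale each agent moved CTSD by an amount that did not differ detectably with the other agent present. The LPS change of CTSD was 0.48 on chip 2 and 1.35 on chip 3, and the TGFβ1 change added to LPS was 1.26 to 1.39 on the 4 chips.

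LGMN, the asparaginyl endopeptidase that trims cathepsins, was dim. It measured 54.5 to 105 (median 85.6) with LPS+TGFβ1 and 32 to 74.9 (median 46.5) with TGFβ1. It measured 76.4 to 247 (median 152) with LPS and 31.6 to 42.9 (median 35.8) with PBS, and was above background on 6 of 8 TGFβ1 arrays and 2 of 8 PBS arrays. Its log2 change was 1.16 ± 0.15 for LPS against PBS (adjusted p = 5.05e-08) and -0.57 ± 0.15 for LPS+TGFβ1 against LPS (adjusted p = 0.00488). A second LGMN probe, above background on no PBS array, was at least 1.56-fold higher with LPS. Another was above background on no LPS or PBS array (log2 change 0.12, limma adjusted p = 0.42). The call for LPS+TGFβ1 against LPS was lost without 1 chip (adjusted p = 0.052). CTSA, which protects NEU1 and GLB1 from degradation, rose with LPS by 0.43 and was at 0.03 with TGFβ1 (adjusted p = 0.88). TPP1, a tripeptidyl peptidase, was called in none of the 6 comparisons (limma; 2 at an unadjusted p under 0.05), with log2 changes from -0.17 to 0.02.

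Of the 7 glycosidases, 3 rose and 1 fell with LPS, and 3 rose with TGFβ1. NEU1, the sialidase that removes terminal sialic acid, measured 3017 to 3517 (median 3281) with LPS+TGFβ1 and 1522 to 2138 (median 1798) with TGFβ1. It measured 3778 to 4581 (median 4047) with LPS and 805 to 2286 (median 1386) with PBS. Every LPS+TGFβ1 array lay below every LPS array. NEU1 had a log2 change of 1.46 ± 0.12 for LPS against PBS (adjusted p = 8.89e-12) and -0.32 ± 0.12 for LPS+TGFβ1 against LPS (adjusted p = 0.0677). With the replicate number as a block this second change passed (adjusted p = 0.0355). Its interaction of -0.62 ± 0.18 (adjusted p = 0.0241) was lost without 1 chip.

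The 2 lysosomal mannosidases, which trim mannose from glycoprotein glycans, rose with each agent. MAN2B1, the alpha-mannosidase, measured 1641 to 2764 (median 2326) with LPS+TGFβ1 and 1226 to 1788 (median 1513) with TGFβ1. It measured 1103 to 2118 (median 1590.1) with LPS and 761 to 1083 (median 973) with PBS. The 3 treated groups lay wholly above PBS. MANBA, the beta-mannosidase, measured 1476 to 1924 (median 1732) with LPS+TGFβ1 and 879 to 1355 (median 1045) with TGFβ1. It measured 867 to 1494 (median 1263) with LPS and 649 to 1011 (median 816) with PBS, so LPS and PBS arrays overlapped. The log2 changes against PBS were 1.13 (LPS+TGFβ1), 0.61 (TGFβ1) and 0.69 (LPS) for MAN2B1. For MANBA they were 1.03 (LPS+TGFβ1), 0.39 (TGFβ1) and 0.56 (LPS). MANBA's LPS change was 0.02 on chip 2 and 0.88 on chip 3, and in set 1 alone it was 0.16 and was not called (adjusted p = 0.221).

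GAA, the acid alpha-glucosidase that breaks down glycogen, rose with TGFβ1 by 0.66 ± 0.11 on the log2 scale (adjusted p = 1.97e-05), and its LPS change was 0.08 (adjusted p = 0.566). Its median intensity was 726 with LPS+TGFβ1, 854 with TGFβ1, 552 with LPS and 569.8 with PBS. HEXA, the alpha subunit of beta-hexosaminidase, rose by 0.43 when TGFβ1 was added to LPS, a call lost without 1 chip (adjusted p = 0.0544). GUSB, the beta-glucuronidase, fell by 0.37 with LPS, and every LPS array lay below every PBS array. Without 1 chip its adjusted p was up to 0.0668. GLB1, the beta-galactosidase, had log2 changes from -0.07 to 0.15 and was called in none of the 6 comparisons (limma; 0 at an unadjusted p under 0.05). Among the 3 sulfatases, ARSB, which acts on dermatan sulfate, rose by 0.60 with LPS, with 0.35 at a second probe (adjusted p = 0.0616), while GALNS and ARSA were called in no comparison (limma; 0 each at an unadjusted p under 0.05). GALNS was above background on 5 to 7 of 8 arrays per group.

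Of the 7 lipid hydrolases and lipid-handling proteins, 5 rose and 1 fell with LPS, and 0 were called with TGFβ1 (limma; 1 rose and 0 fell at an unadjusted p under 0.05). PSAP, the precursor of the saposins that present sphingolipids to their hydrolases, measured 14889 to 19293 (median 17202) with LPS+TGFβ1 and 6044 to 7829 (median 7329.5) with TGFβ1. It measured 12904 to 15831 (median 14422) with LPS and 5953 to 7549 (median 6690.5) with PBS. The groups with LPS lay wholly above those without it. PSAP had a log2 change of 1.11 ± 0.06 for LPS against PBS (adjusted p = 1.53e-16), which lay between 1.00 and 1.17 on the 4 chips. For TGFβ1 against PBS it was 0.11 ± 0.06 (adjusted p = 0.316), and for LPS+TGFβ1 against LPS it was 0.26 ± 0.06 (adjusted p = 0.00213). A second PSAP probe gave 1.06 with LPS and 0.02 with TGFβ1.

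The other lipid genes had smaller LPS changes than PSAP. NPC2, which carries cholesterol out of the lysosome, rose by 0.41 with LPS (adjusted p = 0.00632), and in set 1 alone its change was -0.020. LIPA, the acid lipase for cholesteryl esters, rose by 0.43 with LPS, and its change on adding TGFβ1 to LPS of -0.26 passed with the replicate block (adjusted p = 0.0354) and not without it (adjusted p = 0.182). SMPD1, the acid sphingomyelinase, and GM2A, the GM2 activator, rose with LPS by 0.29 and 0.35, while a second SMPD1 probe gave 0.14 (adjusted p = 0.428). SMPD1 was dim, with 47.1 to 66.6 on the PBS arrays. PPT1, which removes palmitate from proteins, fell by 0.21 with LPS and rose by 0.37 when TGFβ1 was added to LPS (adjusted p = 0.00023). Without 1 chip, the LPS calls of SMPD1, LIPA, GM2A, NPC2 and PPT1 were each lost. ASAH1, the acid ceramidase, had 2 probes that disagreed: for LPS+TGFβ1 against PBS the first rose by 0.37 (adjusted p = 0.0399) and the second fell by 0.23 (adjusted p = 0.0398).

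ACP2, the lysosomal acid phosphatase, measured 592 to 719 (median 650.3) with LPS+TGFβ1 and 235 to 341 (median 304) with TGFβ1. It measured 517 to 1097 (median 762) with LPS and 186 to 276 (median 241) with PBS. The groups with LPS lay wholly above those without it. The log2 change was 1.49 ± 0.12 for LPS against PBS (adjusted p = 1.5e-12) and 0.26 ± 0.12 for TGFβ1 against PBS (adjusted p = 0.156).

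The 5 membrane proteins moved in different directions. LAMP2, a heavily glycosylated protein of the lysosomal membrane, measured 9542 to 11875 (median 11021) with LPS+TGFβ1 and 8389 to 12146 (median 10251) with TGFβ1. It measured 5791 to 8379.9 (median 7102) with LPS and 7743 to 9759.8 (median 8363) with PBS. Every LPS+TGFβ1 array lay above every LPS array, while LPS and PBS arrays overlapped. LAMP2 fell with LPS alone (log2 change -0.32 ± 0.08, adjusted p = 0.000704) and was higher when TGFβ1 was added to LPS (0.66 ± 0.08, adjusted p = 3.47e-08). Its interaction of 0.39 ± 0.11 (adjusted p = 0.0202) was the 1 above 0 among the 8 called members, and was lost without 1 chip (adjusted p = 0.113). Its 2 other probes gave LPS changes of -0.28 and -0.26, which were not called.

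LAMP1, the related glycoprotein, measured 3475 to 4441 (median 3839) with LPS+TGFβ1 and 4702 to 6258 (median 5719) with TGFβ1. It measured 3998 to 4839.9 (median 4399) with LPS and 4195 to 6341 (median 5420.0) with PBS. Every LPS+TGFβ1 array lay below every TGFβ1 array. LAMP1 had a log2 change of -0.29 ± 0.07 for LPS against PBS (adjusted p = 0.00129) and -0.49 ± 0.07 for LPS+TGFβ1 against TGFβ1 (adjusted p = 1.24e-06). For LPS+TGFβ1 against LPS it was -0.17 ± 0.07 (adjusted p = 0.104).

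SCARB2, the receptor that brings glucocerebrosidase to lysosomes, measured 4255 to 5105 (median 4714) with LPS+TGFβ1 and 2656 to 3981 (median 3099) with TGFβ1. It measured 3281 to 6132 (median 4598) with LPS and 1884 to 2349 (median 2041) with PBS. The 3 treated groups lay wholly above PBS, and the ranges with LPS+TGFβ1 and LPS overlapped. SCARB2 had log2 changes against PBS of 1.15 ± 0.12 with both agents, 0.62 ± 0.12 with TGFβ1 and 1.08 ± 0.12 with LPS. Its change for LPS+TGFβ1 against LPS was 0.44 on chip 2 and -0.34 on chip 3, and 0.07 overall (adjusted p = 0.721). MCOLN1, the calcium channel of the lysosomal membrane, rose by 0.71 with LPS (adjusted p = 3.21e-06). CD63, a tetraspanin of lysosomes and multivesicular bodies, had log2 changes from -0.40 to 0.27 and was called in none of the 6 comparisons (limma; 0 at an unadjusted p under 0.05).

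All 3 proton pump genes on the list rose with LPS, and 2 with TGFβ1. ATP6AP1, an accessory subunit, rose by 0.86 ± 0.06 with LPS (adjusted p = 9.28e-14) and by 0.18 with TGFβ1 (adjusted p = 0.0439), the second call being lost without 1 chip (adjusted p = 0.214). ATP6V1H, of the ATP-driven head, rose by 0.68 ± 0.07 with LPS (0.19 at a second probe that was not well above background with PBS, adjusted p = 0.195), and its TGFβ1 change was 0.15 (adjusted p = 0.186). ATP6V0D1, of the membrane-bound part, had nearly the same log2 change against PBS in every treatment: 0.43 with both agents, 0.43 with TGFβ1 and 0.46 with LPS. Its interaction was -0.46 ± 0.09 (adjusted p = 0.00131) and stayed under the threshold without any 1 chip.

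TFEB itself was dim and rose in each treatment. It measured 108 to 242 (median 169) with LPS+TGFβ1 and 75.7 to 99.8 (median 87.5) with TGFβ1. It measured 84.4 to 271 (median 161) with LPS and 26.8 to 63.9 (median 44.8) with PBS, where 5 of 8 arrays were above background. The 3 treated groups lay wholly above PBS. The log2 change was 1.16 ± 0.16 with LPS+TGFβ1, 0.53 ± 0.16 with TGFβ1 (adjusted p = 0.0195) and 1.14 ± 0.16 with LPS (adjusted p = 2.75e-07), each against PBS. On this scale the change of so dim a gene is understated. The TGFβ1 call was lost without 1 chip (adjusted p = 0.0806).

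Genes with and without an E-box both moved. Of the 28 genes with both a promoter in the table and a probe, 9 carried the core E-box. With LPS against PBS, 5 of these 9 rose and 1 fell, with a median log2 change of 0.43, while of the 19 without it 15 rose and 2 fell, with a median of 0.69. With TGFβ1 against PBS, 3 of the 9 rose (median 0.26) and 6 of the 19 (median 0.18). CTSD and NEU1 were the carriers with LPS changes of at least 2-fold, while GALNS and CD63, which carry it, were called in no comparison. No test of this difference was made.

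Lists of risers under an agent, with and without the other agent, overlapped. The same overlap over all probes was not counted, and whether it is particular to the 38 genes was not tested. The comparisons of TGFβ1 with PBS and of LPS+TGFβ1 with LPS share no arrays. Each raised 12 of the 38 genes, and 8 rose in both, which is 66.7% of each list: CTSB, CTSH, CTSD, DNASE2, GAA, MAN2B1, MANBA and LAMP2. Of the 4 that rose with TGFβ1 alone and were not called on top of LPS, ATP6V0D1 and SCARB2 had called interactions below 0, and ATP6AP1 and TFEB did not. The comparisons of LPS with PBS and of LPS+TGFβ1 with TGFβ1 likewise share no arrays. The first raised 25 and the second 20, and 20 rose in both, which is 80% of the first list and 100% of the second. LAMP1 fell in both.

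**Figure D4:**
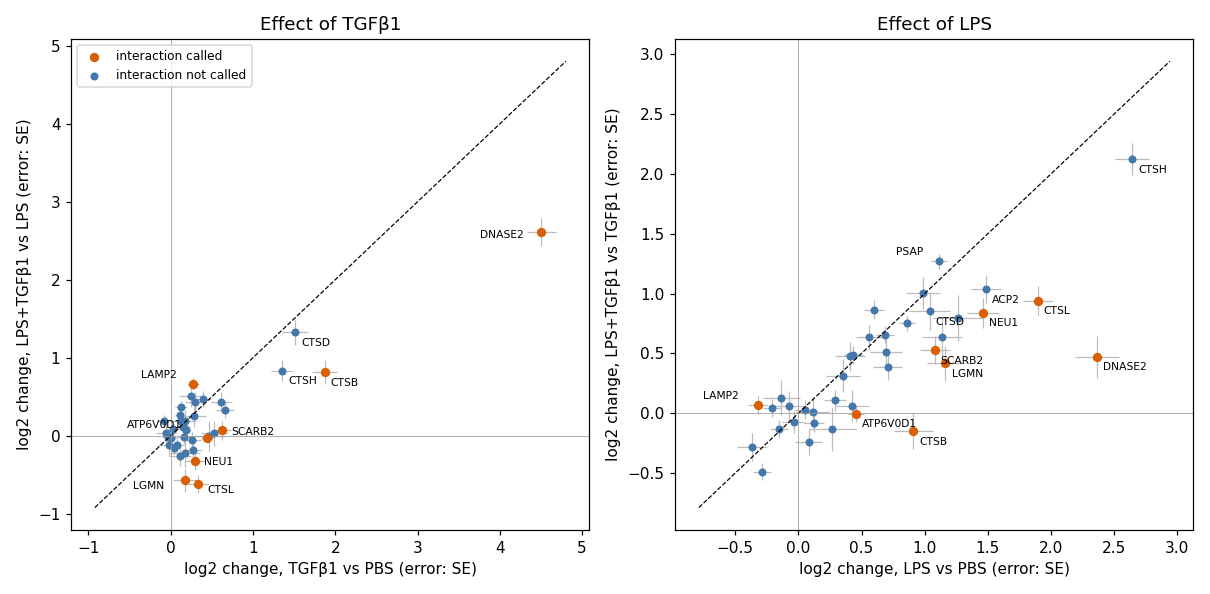
Log2 change of each of the 38 genes under an agent in the absence (x axes) and presence (y axes) of the other, for TGFβ1 (left) and LPS (right), with standard errors as bars. The dashed line is equality, and orange points have an interaction with adjusted p under 0.05. DNASE2 lies below the line in both panels (4.50 and 2.61 for TGFβ1, 2.36 and 0.47 for LPS), and LAMP2 lies above it.

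Called interactions ran mostly below 0: DNASE2, CTSB, CTSL, LGMN, NEU1, SCARB2 and ATP6V0D1 were below it, and LAMP2 above it. For those below 0, the sum of the changes under each agent alone was larger, on the log2 scale, than the change under both. Calls for CTSB, CTSL, DNASE2 and ATP6V0D1 held when any 1 chip was left out. Those for LGMN, NEU1, LAMP2 and SCARB2 were each lost without some chip (highest adjusted p of 0.13, 0.17, 0.113 and 0.305). The number of called interactions was 4 to 8 when 1 chip was left out, and among the 38 genes 14 were called in set 2 alone and 9 in set 1 alone.

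Sizes of the changes varied between chips. The median log2 change of the 38 genes for LPS against PBS was 0.73 on chip 3 and 0.32 on chip 2, with 31 of 38 larger on chip 3. In set 2 it was 0.75, and in set 1 it was 0.37. For TGFβ1 against PBS the medians were 0.29 on chip 3 and 0.14 on chip 2, with 28 of 38 larger on chip 3. For LPS+TGFβ1 against LPS they were -0.01 on chip 3 and 0.23 on chip 2, with 10 of 38 larger on chip 3. The difference between the chips was not tested, and each chip holds 2 arrays per treatment. These values cover the 38 genes alone and were not taken over all probes. Whether the shift is particular to the list was not tested.

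Signs were mostly shared between chips. All 12 genes called with TGFβ1 had a change above 0 on all 4 chips. Of the 29 called with LPS, GM2A had 1 chip on the other side of 0 (-0.13 on chip 2), and the other 28 had the same sign on all 4. CTSL moved with LPS by 1.25 on chip 2 and 2.28 on chip 3, SCARB2 by 0.59 and 1.57, and TFEB by 0.75 and 1.65. CTSB moved with TGFβ1 by 1.73 to 1.98 and CTSH by 1.27 to 1.45 on the 4 chips.

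**Figure D5:**
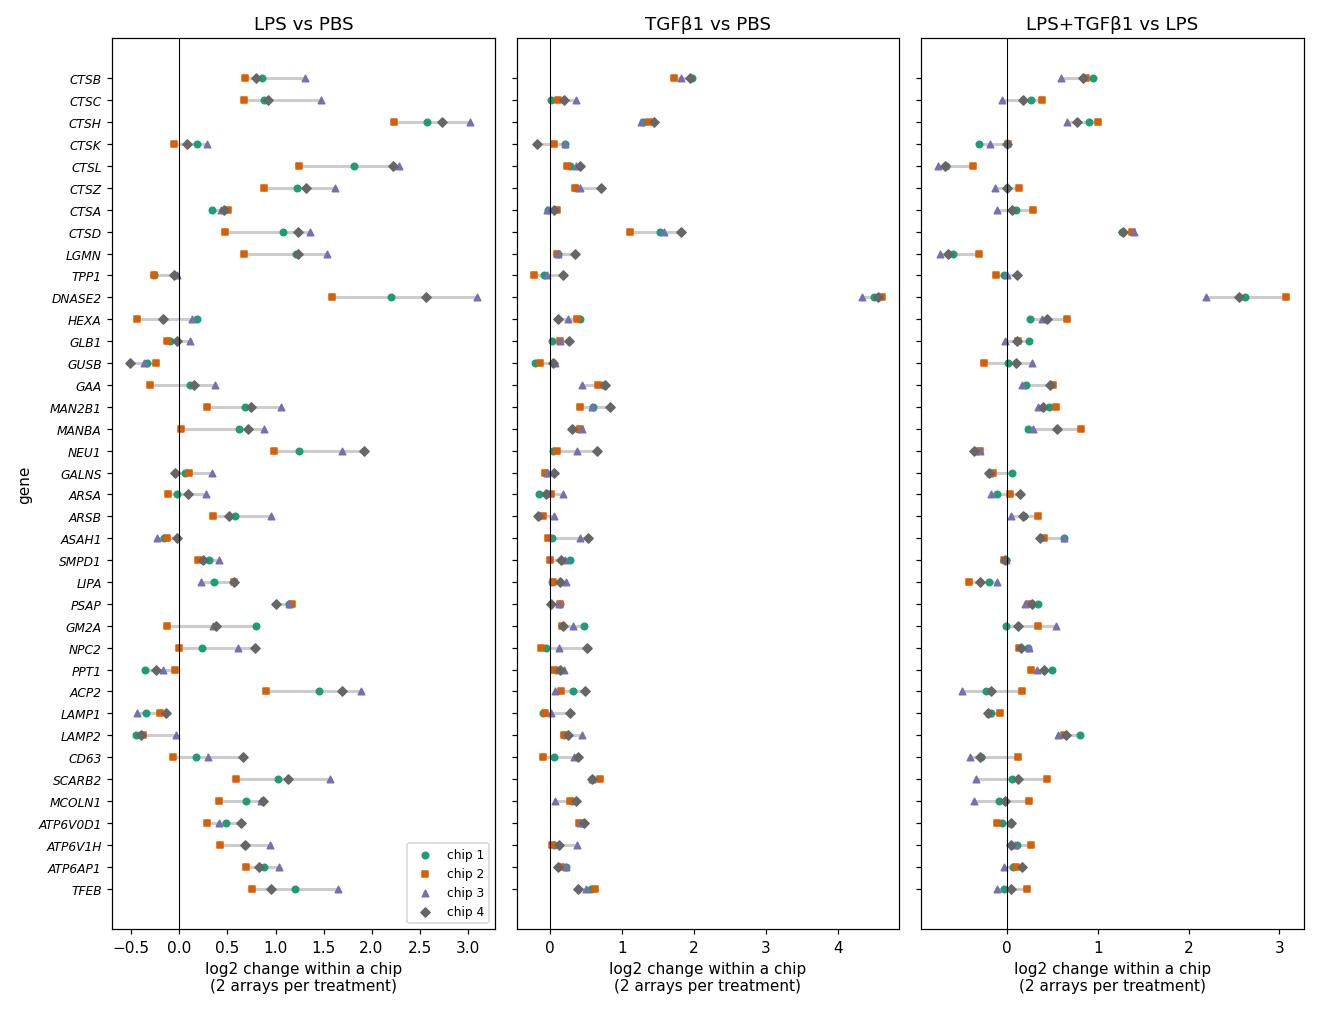
Log2 change of each of the 38 genes (rows) within each chip, for LPS against PBS, TGFβ1 against PBS and LPS+TGFβ1 against LPS (panels). Each symbol is 1 chip with 2 arrays per treatment, and the grey bar spans the 4 chips. In the LPS panel chip 2 lies left of chip 3 for 31 of 38 genes, and DNASE2, CTSB, CTSH and CTSD lie right of 0 on all chips in all 3 panels.

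Beyond the 38 genes, 129 others of the lysosome, its sorting routes and autophagy were listed, and 111 were tested. With LPS against PBS 49 rose and 23 fell, beside 20.9% and 21% of all probes, so the share that fell (23 of 111) was near that of all probes. With TGFβ1 against PBS 27 rose and 2 fell, beside 7.54% and 5.7%, and with LPS+TGFβ1 against LPS 15 rose and 4 fell, beside 8.19% and 10.1%. Their medians were 0.18, 0.08 and 0.03 on the log2 scale. For these genes only the probe with the highest mean is given. Some had other probes that are not reported: MAP1LC3A, IDS and TCIRG1 had 3 probes each, and GPNMB had 2.

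Among 23 further hydrolases, 9 rose and 8 fell with LPS (all probes: 20.9% and 21%). SGSH, which removes sulfate from heparan sulfate, rose by 2.14 ± 0.26 on the log2 scale with LPS and by 0.97 with TGFβ1. CTSS, an antigen-processing cathepsin, rose by 1.10 ± 0.19 with LPS. CTSV, the close relative of CTSL, fell with LPS by 1.40 ± 0.09 and with TGFβ1 by 0.77. RNASET2, the acid ribonuclease, fell by 1.06 ± 0.10 with LPS and was higher by 0.72 when TGFβ1 was added to LPS. IDS, the iduronate sulfatase, rose by 1.59 ± 0.08 with TGFβ1 (adjusted p = 1.97e-17) and by 0.99 when TGFβ1 was added to LPS.

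Of 18 further membrane proteins, 11 rose and 3 fell with LPS (all probes: 20.9% and 21%), and 7 rose with TGFβ1 (all probes: 7.54%). LAMP3, known from mature dendritic cells, was above background on all 8 LPS+TGFβ1 arrays and all 8 LPS arrays, and on 0 of 8 TGFβ1 and 0 of 8 PBS arrays. LPS raised it at least 21.3-fold over PBS (adjusted p = 7.5e-10); the bound sets the LPS mean against the lowest signal above background on the PBS arrays. GPNMB, a glycoprotein of macrophage lysosomes, rose by 1.20 with LPS and 1.28 with TGFβ1. LAPTM5, of blood cell lysosomes, rose by 1.27 ± 0.13 with TGFβ1 and by 1.10 ± 0.13 when TGFβ1 was added to LPS. ABCA2, a transporter, fell by 1.14 with LPS. TPCN1 and TPCN2, cation channels of endosomes and lysosomes, moved by 0.54 and -0.33 when TGFβ1 was added to LPS, and both passed.

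Among 19 further proton pump subunits, 10 rose and 2 fell with LPS (all probes: 20.9% and 21%), 5 rose with TGFβ1 (all probes: 7.54%), and 0 were called for LPS+TGFβ1 against LPS (limma; 1 rose at an unadjusted p under 0.05). ATP6V0A1 rose by 1.17 and ATP6V1F by 0.91 with LPS, while ATP6V0E2 fell by 0.96 and ATP6V1C2 by 0.93. ATP6V1C2 was dim, with a mean intensity of 60 over all arrays, where background thresholds of the arrays ran from 25.6 to 56. TCIRG1, the pump subunit known from osteoclasts, rose by 0.70 with TGFβ1.

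SORL1 and GGA2, which sort cargo to lysosomes, fell with LPS and rose with TGFβ1. Of 12 sorting genes tested, 3 rose and 5 fell with LPS (all probes: 20.9% and 21%), the share of rises being near that of all probes. With TGFβ1 4 rose (all probes: 7.54%), and 5 rose when TGFβ1 was added to LPS (all probes: 8.19%). SORL1, a sorting receptor of the Golgi and endosomes, measured 917 to 1791 (median 1296) with LPS+TGFβ1 and 2020.5 to 3722 (median 2528) with TGFβ1. It measured 156 to 259.9 (median 196) with LPS and 350.3 to 669 (median 388) with PBS. The 4 groups did not overlap. SORL1 rose by 2.46 ± 0.17 with TGFβ1 against PBS (adjusted p = 1.51e-13) and by 2.41 ± 0.17 with LPS+TGFβ1 against LPS, and fell by 1.01 with LPS against PBS. GGA2, an adaptor that loads mannose 6-phosphate receptors into vesicles, fell by 1.02 with LPS and rose by 0.79 with TGFβ1. M6PR, a mannose 6-phosphate receptor, rose by 0.42 with LPS.

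Of 12 genes of the MiT/TFE family and its regulators, 5 rose and 1 fell with LPS (all probes: 20.9% and 21%), and 2 rose with TGFβ1 (all probes: 7.54%). TFE3, a relative of TFEB, rose by 0.79 ± 0.07 with LPS and by 0.24 with TGFβ1. RRAGC, which helps to bring mTORC1 to the lysosome, rose by 0.52 with LPS, and RPTOR, a part of mTORC1, rose by 0.45 with TGFβ1. ZKSCAN3, a repressor of autophagy and lysosomal genes, fell by 0.47 with LPS.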

How the data were processed

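Total RNA of THP-1 cells was measured on 32 Illumina HumanRef-8 arrays, 8 per treatment, grouped by the sample titles. Values are the deposited intensity per probe, linear, as in the table of processed values. Per the submitters' processing notes BeadStudio 3.2 was involved, in a role left unsaid; how background was corrected and arrays were normalized is not given in the sources used here. Upper quartiles of the arrays lay between 345 and 381 and the lowest value was -35.4; centring and scale factor stay unknown. A deposited non-normalized table has 64 value columns whose headings match no label; they were not used.

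Values were set to log2(intensity + 50), which understates changes of dim genes. The lowest 25% of probes by mean were left out, which kept 18388 of 24518. The test was that of limma 3.58.1, run in R 4.3.3 (4 group means over 32 arrays, eBayes, two-sided, Benjamini-Hochberg adjusted p under 0.05 within each of 6 comparisons). "Called" means past that threshold. A probe was above background where it exceeded, by 3 SDs, the mode of dim probes (SD taken from the side under the mode). Of all probes, 21826 had 1 gene symbol, 0 several and 2692 none. Errors of log2 changes are standard errors, and the number of arrays limits precision. On simulated data the fit was tested first.

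Same-numbered arrays deviated together in TGFβ1 against PBS (correlations of 0.143 to 0.724 over 8 pairs) and in LPS+TGFβ1 against LPS (0.517 to 0.678). The replicate block is given there, and the pairing comes from the data and the shared chip. In TGFβ1 against PBS the same-numbered array was the closest match for 2 of 8 arrays, and others correlated at up to 0.727. It was the closest for 6 of 8 in LPS+TGFβ1 against LPS, and for 6 of 8 in LPS+TGFβ1 against TGFβ1 (-0.136 to 0.499). The members, lists and tests were chosen with earlier results of these data known. Genes called at 2-fold or more in any comparison, and TFEB, LAMP1 and LAMP2, are given with their ranges; of each further list, up to the 2 largest rises and 2 largest falls per comparison are named. SORL1 ranges and the values within sets were added after seeing the data. Promoter sequences are from RefSeq. Alternatives were other offsets, scalings and filters, blocks, single chips, chips left out, array weights, only the groups compared, and the mean of all probes.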

Additional observations from a re-analysis of the deposited data

Results flagged for a closer look

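PBS replicate 8, on chip 4, lay far below the other 7 PBS arrays for 3 of the 38 genes. GAA measured 353 there, against a median of 573 on the other PBS arrays. NPC2 measured 8035, against 15111, and MCOLN1 measured 146, against 244. The gap to the next lowest PBS array was 0.602 of the group's range for GAA, 0.616 for NPC2 and 0.581 for MCOLN1. Each gap passed Dixon's limit for 8 arrays. These were 3 of 152 groups of 8 arrays examined, or 1.97%, and chance flags about 5%. Without PBS replicate 8, 30 of the 38 genes were called for LPS against PBS and 12 for TGFβ1 against PBS.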

How the results depend on the processing

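Counts of called genes out of 38 are given in the order LPS against PBS, TGFβ1 against PBS, LPS+TGFβ1 against PBS, LPS+TGFβ1 against LPS, LPS+TGFβ1 against TGFβ1, and the interaction; the main counts were 29, 12, 30, 14, 21 and 8. Chip 1 alone gave 9, 2, 15, 1, 3 and 0, and chip 4 alone 13, 2, 15, 0, 4 and 0, with 2 arrays per group. Chip 2 alone gave 3 interactions. With 1 chip left out the counts ranged from 25 to 28, 9 to 10, 27 to 29, 11 to 13, 19 to 22 and 4 to 8, the interactions being 4 without chip 1, 5 without chip 3 and 4 without chip 4. Array weights gave 19 for TGFβ1 against PBS and 22 for LPS+TGFβ1 against LPS. Set 2 alone, chosen after seeing the data and with p-values that can be too small, gave 21 for TGFβ1 against PBS and 14 interactions. Signs turned on chip 2 alone for GAA (-0.30) and GM2A (-0.13) with LPS against PBS, on chip 3 alone and set 2 alone for SCARB2 in LPS+TGFβ1 against LPS (-0.34 and -0.33), in set 1 alone for NPC2 with LPS against PBS (-0.020) and DNASE2 in LPS+TGFβ1 against TGFβ1 (-0.035), and in set 2 alone for the interaction of CTSC (-0.38). Apart from fewer arrays in these settings, the cause was not tested. With the replicate block the counts were 30, 15, 31, 16, 23 and 9; it ended 0 calls, and beside those named in the report it added CD63 for LPS against PBS (adjusted p = 0.0445), PPT1 for LPS+TGFβ1 against PBS (0.0337), GUSB and GM2A for LPS+TGFβ1 against TGFβ1 (0.0012 and 0.019) and the CTSH interaction (0.0404). Without replicate 7 the counts were 28, 11, 28, 13, 21 and 7, and without PBS replicate 8 they were 30, 12, 32, 15, 21 and 8, both chosen after seeing the data. Each comparison's count under the other offsets, filters and scalings stayed within 1.5 times the main one. The normexp correction planned on the non-normalized table was not run, since its columns match no label. Dim genes (LGMN, TFEB, HEXA, GALNS, SMPD1 and, of the further lists, CST7 and ATP6V1C2) lie near background, which limits their changes. CTSK and ARSA, with means of 104 and 109 over all arrays, were above background on every array and are dim as well.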

Other observations

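Of 22 autophagy genes tested, 10 rose, 4 fell and 8 were not called with LPS against PBS, beside 20.9% of all probes that rose and 21% that fell. With TGFβ1 against PBS 4 rose and 1 fell, beside 7.54% and 5.7%, and with LPS+TGFβ1 against LPS 3 rose and 2 fell, beside 8.19% and 10.1%. MAP1LC3A, which coats the growing autophagosome, rose by 2.26 ± 0.28 on the log2 scale with LPS (limma, adjusted p = 2.6e-08), and its TGFβ1 change was 0.06 (adjusted p = 0.933). SQSTM1, the cargo receptor p62, rose by 2.02 ± 0.19 with LPS (adjusted p = 9.75e-11), and its TGFβ1 change was -0.05 (adjusted p = 0.925). GABARAPL1, of the same coat family as MAP1LC3A, rose with each agent, by 1.51 ± 0.12 with TGFβ1 and 1.68 ± 0.12 with LPS, and by a further 0.72 when TGFβ1 was added to LPS. ATG5 fell by 0.46 with LPS and UVRAG by 0.27 with TGFβ1. ATG9A was lower by 0.47 when TGFβ1 was added to LPS.

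Cathepsin inhibitors were few above the filter: 5 of 10 listed were tested. CSTB, cystatin B, rose by 1.29 ± 0.17 with LPS (adjusted p = 1e-07). CST7, a cystatin of leukocyte lysosomes, was lower by 0.22 for LPS+TGFβ1 against LPS (limma, adjusted p = 0.0362). It was dim, with a mean intensity of 46.6 over all arrays, where background thresholds of the arrays ran from 25.6 to 56.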
